A study of Caenorhabditis elegans with 8 samples.

Results

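Endo-cleaved DNA of nucleosome core length was examined in activated oocytes of Caenorhabditis elegans. Core-length fragments were defined by fragment length alone, as the fragments of 140 to 150 nt in the paired-end library of 130 to 430 nt DNA, with each distinct fragment counted once. They numbered 3017560 of 13573150 distinct fragments in that library (22.2%). The study sequenced 8 libraries of DNA from fer-1(b232) oocytes grown at the restrictive temperature, 1 library per condition. Sperm of this mutant do not fertilise, so ovulated oocytes accumulate and replicate their DNA without dividing, and all 8 libraries share this background. In 7 libraries the DNA was extracted by direct lysis, so that the only cuts are those of the oocytes' own nuclease ("endocleavage"). In the remaining library ground oocytes were digested with added micrococcal nuclease (MNase) and nucleosome core DNA was taken. Each entry in the lists is a mapped fragment or tag on 1 of the 6 nuclear chromosomes. Without repeat libraries no error between oocyte preparations can be given, and the range over the 6 chromosomes is printed beside the main profile values. The chromosomes are parts of 1 library and not replicates of the oocytes.

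A nucleosome core is DNA wound around an octamer of histones, and linker DNA joins each core to the next. MNase digests linker first and slows at the edge of the core, so its tags mark core edges. A nuclease that nicks DNA lying on a histone surface reaches the backbone where it faces outward, which recurs once per helical turn. In worms the type II DNase NUC-1 degrades DNA of dying cells. From double mutants, the paper implicates NUC-1 in the oocyte cuts too and concludes that they do not need the canonical cell death pathway.

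The length rule fixed what these fragments have in common, so their counts by length are a description. The band held 3459886 copies of the 3017560 fragments. Fragments of 139 nt, just outside, numbered 231016, against 259922 at 140 nt. At the other edge there were 256917 at 150 nt and 252687 at 151 nt. The commonest length was the middle one of the band, with 292219 distinct fragments, and it was also the median. Most fragments were seen as 1 copy (87.1%), 11.4% as 2 copies and 1.49% as 3 or more, the highest being 113 copies. Most fragments had ends of their own, and 8.34% shared the left end, or the right end, with another core-length fragment. At most 11 fragments began at 1 base.

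Core-length fragments were spread over the whole genome. Their union covered 92.4% of the 100254171 nt spanned by the list, from 91.4% on chromosome IV to 95.1% on X, at a median depth of 4 fragments on the autosomes and 5 on X. The median window of 1 kb held 30 of them, with a range of 12 to 49 between the 5th and 95th percentiles. Of 99101 windows with any fragment of the library, 477 (0.481%) held none, and those windows had a median of 4 fragments of any length.

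By chromosome, the median window held 28 core-length fragments on IV, 29 on both I and III, 31 on both II and V, and 32 on X. Chromosome X was therefore the highest, and the ratio of X to the autosomes together was 1.07, running from 1.03 over II or V to 1.14 over IV. The 130 to 430 nt library as a whole had the same excess, with a ratio of 1.07 for fragments of any length. Taken as a share of all fragments in the window, the ratio of core-length DNA on X to that on the autosomes was 1.00. MNase tags had a ratio of 1.18 and 20 to 80 nt fragments one of 1.02. DNA content of the chromosomes was not measured apart from these libraries.

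Each chromosome was divided into 3 stretches of equal length. The middle stretch held more core-length fragments than either arm on all 6 chromosomes, with medians of 31 to 33 per kb against 26 to 32. Chromosome III differed most, with 26, 32 and 28 per kb from left to right. Chromosome X differed least, with 31, 33 and 32 per kb. All fragments of the library followed the same order, from 141 to 151 per kb in the middle and 120 to 144 in the arms. The core-length share was also higher in the middle on each chromosome. On chromosome III it was 22.5% of all fragments in the middle (95% Wilson interval 22.4 to 22.6%), against intervals of 21.9 to 22.1% on the left and 22.1 to 22.3% on the right. On X the middle had 22.3% (22.2 to 22.4%), and its interval overlapped those of both arms. On V the interval of the middle overlapped that of the left arm, and on I, II and IV those of the middle lay above both arms. These intervals cover counting error of distinct fragments only, and not differences between oocyte preparations.

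**Figure D1:**
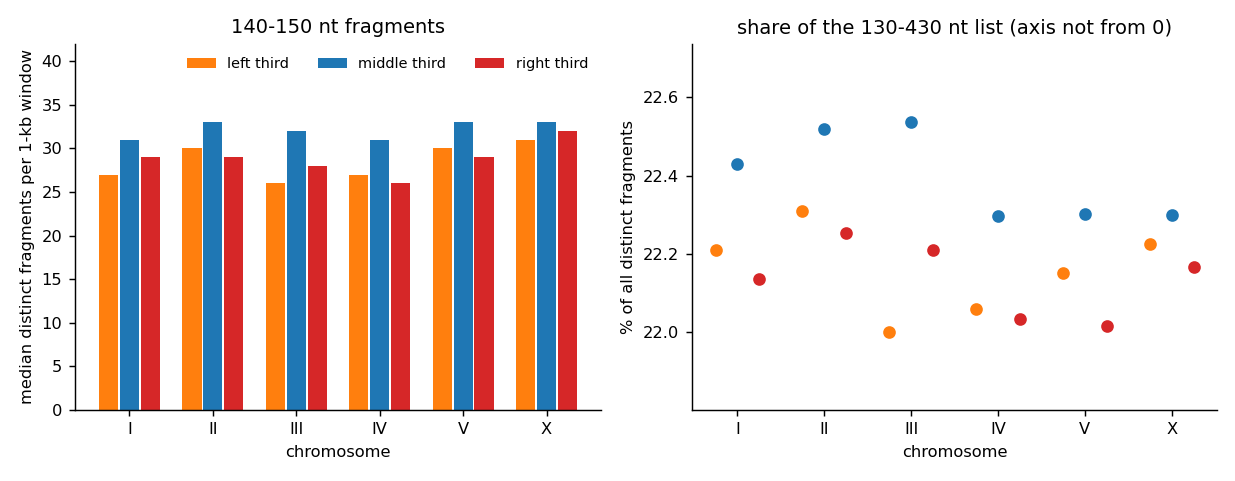
Left, median number of distinct 140 to 150 nt fragments per 1-kb window in the left, middle and right stretch of each chromosome. Right, the share of all distinct fragments of the 130 to 430 nt library that are 140 to 150 nt long, on an axis that does not start at 0. The middle stretch is highest in every chromosome in both plots, with 31 to 33 fragments per kb.

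The share of core length changed little from window to window. In 95860 windows with at least 50 fragments the median share was 22.2%, with 16.1% at the 5th percentile and 28.3% at the 95th. Its SD over windows was 3.77 percentage points, and the binomial SD at the depth of these windows was 3.66 points. The number of core-length fragments itself varied more than counting would give, with a variance 4.49 times its mean.

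The windows with most core-length fragments on each chromosome were examined by name. Window positions are counted from 1 here, and the build of the list is not given in the sources used here. On chromosome V the window at chrV:17118001-17119000 held 1071, which is 35.7 times the median window. It also held 7386 fragments of any length, so that the core-length share was low (95% Wilson interval 13.7 to 15.3%) beside the 22.2% of the library. The same window held 5407 fragments of the 20 to 80 nt library, 91.6 times the median, and only 13 MNase tags, 0.173 times the median. Chromosomes II and IV had windows of 257 (chrII:2005001-2006000) and 174 (chrIV:8402001-8403000) core-length fragments, where MNase tags numbered 12 and 0. On chromosome III the window at chrIII:13780001-13781000 held 241, and MNase tags there numbered 840, or 11.2 times the median. The highest windows therefore went with many MNase tags in some places and with almost none in others. Each of these 4 windows was over 5 times the median of all fragments, as were 11 windows in all.

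On chromosomes I and X no such window led. The window at chrI:312001-313000 held 86 core-length fragments of 294 (29.3%, interval 24.3 to 34.7%). The one at chrX:3756001-3757000 held 108 of 356 (30.3%, interval 25.8 to 35.3%) and 269 MNase tags, 3.59 times the median. Both intervals lay above the share in the library as a whole, but the windows had been picked for their high counts. Without windows over 5 times the median, the leading windows of II, III, IV and V held from 91 to 144 core-length fragments, at shares of 23.1 to 25.7% whose intervals all included 22.2%.

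Where core-length DNA was dense, MNase-generated core DNA tended to be dense too. Over 98957 windows of 1 kb, Spearman's rho between core-length fragments and MNase tags was 0.62, from 0.57 on X to 0.64 on I. Neighbouring windows are not independent, and both counts share base composition and the mappability of the window. With the 20 to 80 nt fragments, cut by the same endogenous nuclease, rho was 0.52. The 20 to 80 nt fragments and MNase tags had a rho of 0.20 with each other. Core-length fragments thus had a higher coefficient with either library than those libraries had between them. Coefficients of other length classes with either library were not computed, so this is not shown to be particular to core length. In windows of 10 kb the coefficient with MNase tags was 0.62 and that with 20 to 80 nt fragments 0.60, whereas that between the latter pair was -0.01. Within their own library, core-length fragments had a rho of 0.63 with fragments of 130 to 139 nt, 0.67 with 151 to 160 nt and 0.67 with 170 to 205 nt. In windows of 10 kb these were 0.86, 0.87 and 0.85.

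Distances between the midpoints of core-length fragments show how their positions relate. Pairs of fragments were counted at each distance and divided by the mean number at 1001 to 1500 nt. The counts rose and fell with the helical turn. Local maxima lay at 11 nt (1.37 times the far mean), 21 nt (1.31), 32 nt (1.24), 42 nt (1.21), 53 nt (1.16) and 63 nt (1.12). Further maxima, 10 to 12 nt apart, continued past the point where both fragments no longer overlap. They included those at 159 nt (1.15), 170 nt (1.15) and 181 nt (1.13). A sinusoid on a curved baseline was fitted from 21 to 120 nt, and its amplitude relative to the mean is called the 10-nt share here. It was 4.01%, with a best period of 10.35 nt. By chromosome the share ran from 3.67% on X to 4.33% on I. Sinusoids with periods near 7 or 14 nt, fitted as a comparison, reached 0.949% at most. From 101 to 200 nt the share was 3.44%, against 0.662% for the comparison periods, and the fitted period sat at the upper limit of those tried. From 201 to 300 nt it was 0.568%, from 301 to 400 nt 0.279% and from 401 to 500 nt 0.117%, the last close to 0.112% for the comparison periods.

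A slower wave lay beneath the helical crests, and its relation to the spacing of nucleosomes was not tested. After smoothing over 11 nt the minimum lay at 116 nt (1.05 times the far mean) and the highest point between 140 and 240 nt at 173 nt (1.12). Further maxima lay at 358 nt (1.06), 545 nt (1.04) and 744 nt (1.03), with minima at 261, 457 and 650 nt between them. The later maxima thus lay somewhat beyond the whole multiples of 173 nt. The first maximum was broad and carried helical ripples, so that its top fell at different crests: 164 nt on I and V, 173 nt on II, 149 nt on III, 174 nt on IV and 151 nt on X. With smoothing over 31 nt, chosen after this was seen, it lay at 161 nt on all chromosomes together, at 159 to 162 nt on 5 chromosomes and at 173 nt on IV. The later maxima then lay at 357, 550, 734 and 929 nt. The height of the first maximum was 1.07 on X and 1.11 on I, II, III and IV. Chromosome V had 1.20, and 1.10 without windows over 5 times the median.

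**Figure D2:**
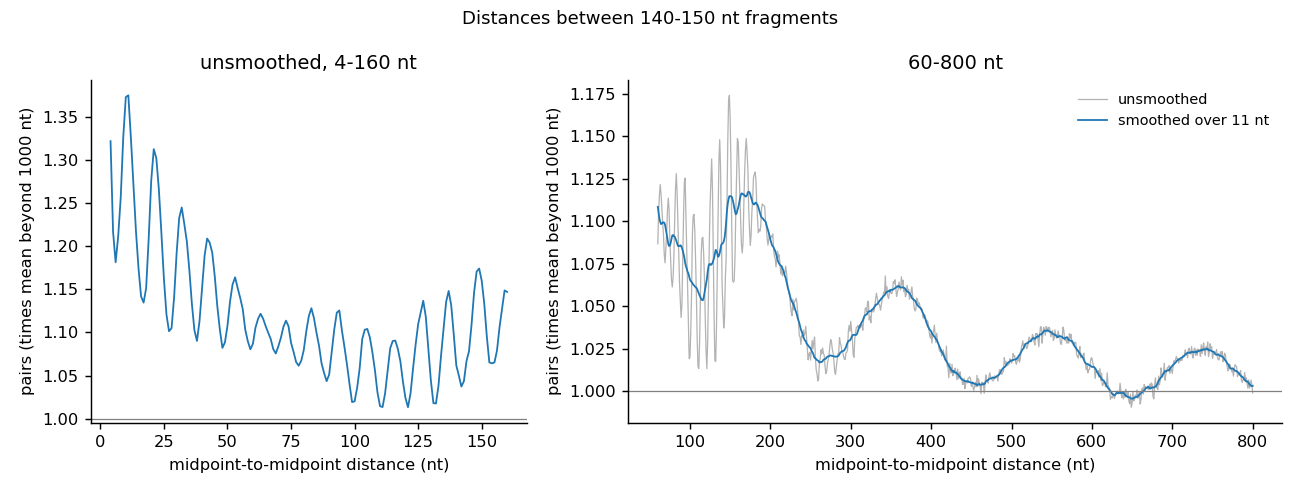
Number of pairs of 140 to 150 nt fragments at each midpoint-to-midpoint distance, divided by the mean at 1001 to 1500 nt. Left, unsmoothed from 4 to 160 nt, with crests at 11, 21, 32 and 42 nt. Right, from 60 to 800 nt, unsmoothed in grey and smoothed over 11 nt in blue, with broad maxima at 173, 358, 545 and 744 nt.

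The ends of core-length fragments were also compared with each other. At the right end of 1 fragment and the left end of another, the number of pairs was highest when the ends faced each other across a gap of 4 nt (1.38 times the mean at 401 to 600 nt, from 1.32 to 1.47 over the chromosomes). Further crests lay at gaps of 14 nt (1.21), 24 nt (1.20), 34 nt (1.17) and 45 nt (1.13). Overlapping ends had crests as well, at overlaps of 8 nt (1.26), 17 nt (1.23), 28 nt (1.13) and 38 nt (1.16). A sharp value of 1.32 stood at an overlap of 1 nt. Directly abutting ends, with a gap of 0, were at 0.839 times the mean. Ends on the same side coincided at the same base 2.84 times as often as at 401 to 600 nt, and had crests at 10 nt (1.41), 21 nt (1.38) and 31 nt (1.28). Ends had been blunted with T4 DNA polymerase, which removes 3′ overhangs. A gap of this kind is therefore a distance between blunted ends and not between the ends as first cut.

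MNase 5′ ends were then counted around the ends of core-length fragments. Same-strand ends were taken by position from the 5′ end of the fragment on either strand and divided by their mean at 300 to 400 nt from the midpoint. MNase ends were above this flank at the fragment ends. The maximum lay 4 nt outside the end, at 1.56 times the flank (1.52 to 1.60 over the chromosomes). An almost equal value, 1.56 (1.53 to 1.58), stood 1 nt outside, and it was the maximum on II and X. The value 2 nt outside was 1.09 and that at the end itself 1.23, so MNase ends were fewer at the very base where endocleavage had ended than 1 nt further out. Left and right ends of the fragments gave the same picture, with 1.56 and 1.57 at 4 nt outside.

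Beneath these sharp values lay a broader crest. Centred on the midpoint and smoothed over 11 nt, MNase ends were highest 75 nt before the midpoint (1.32, from 1.29 to 1.34 over the chromosomes), which is about where a fragment of the middle length ends. Within the fragment they were lowest 64 nt past the midpoint, at 1.02. A second crest of 1.12 lay 96 nt past the midpoint, beyond the far end of the fragment. MNase ends also rose and fell inside the fragment, with maxima 7 nt (1.40), 17 nt (1.29), 27 nt (1.23) and 38 nt (1.19) from the end. Their 10-nt share from 10 to 130 nt inside was 4.08%, and 0.673% for the comparison periods.

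Fragments of neighbouring lengths served as the comparison. At 1 nt outside the end MNase stood at 1.51 for fragments of 130 to 139 nt (1.48 to 1.53 over the chromosomes) and at 1.59 for 151 to 160 nt (1.56 to 1.61). The range for 151 to 160 nt overlapped that of the core-length fragments. The range for 130 to 139 nt ended just below it, at 1.5343 against 1.5344. Fragments of 170 to 205 nt, a core with some linker, had 1.29 (1.27 to 1.33), below the range of the core-length fragments. At 4 nt outside they had 1.44 (1.40 to 1.48), again below it. Their broad crest lay 81 nt before the midpoint, inside the end of such fragments, at 1.28. For 130 to 139 nt the broad crest lay 68 nt before the midpoint, at 1.28 (1.26 to 1.31 over the chromosomes). For 151 to 160 nt it lay 73 nt before the midpoint and was higher than for the core-length fragments, at 1.36 (1.33 to 1.39) against 1.32 (1.29 to 1.34). Sharp values at 1 and 4 nt were thus found for every class, and they were lower in the 170 to 205 nt class. The preference of MNase or of the endogenous nuclease for particular bases was not tested.

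Cuts inside the core-length fragments were read from the 20 to 80 nt library. Its ends fell on the exact end of a core-length fragment 2.37 times as often as in the flank (2.17 to 2.79 over the chromosomes). Inside the fragment they had crests at 10 nt (1.39), 21 nt (1.48), 31 nt (1.43), 42 nt (1.42), 52 nt (1.34) and 62 nt (1.31). These crests stood 3 to 5 nt further in than the first 6 of MNase, at 7, 17, 27, 38, 47 and 58 nt. Between them the ends fell to or below the flank, for example to 0.918 at 5 nt and 0.931 at 47 nt. Crests continued outside the fragment at 10 nt (1.30), 20 nt (1.22) and 31 nt (1.18) before its end.

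**Figure D3:**
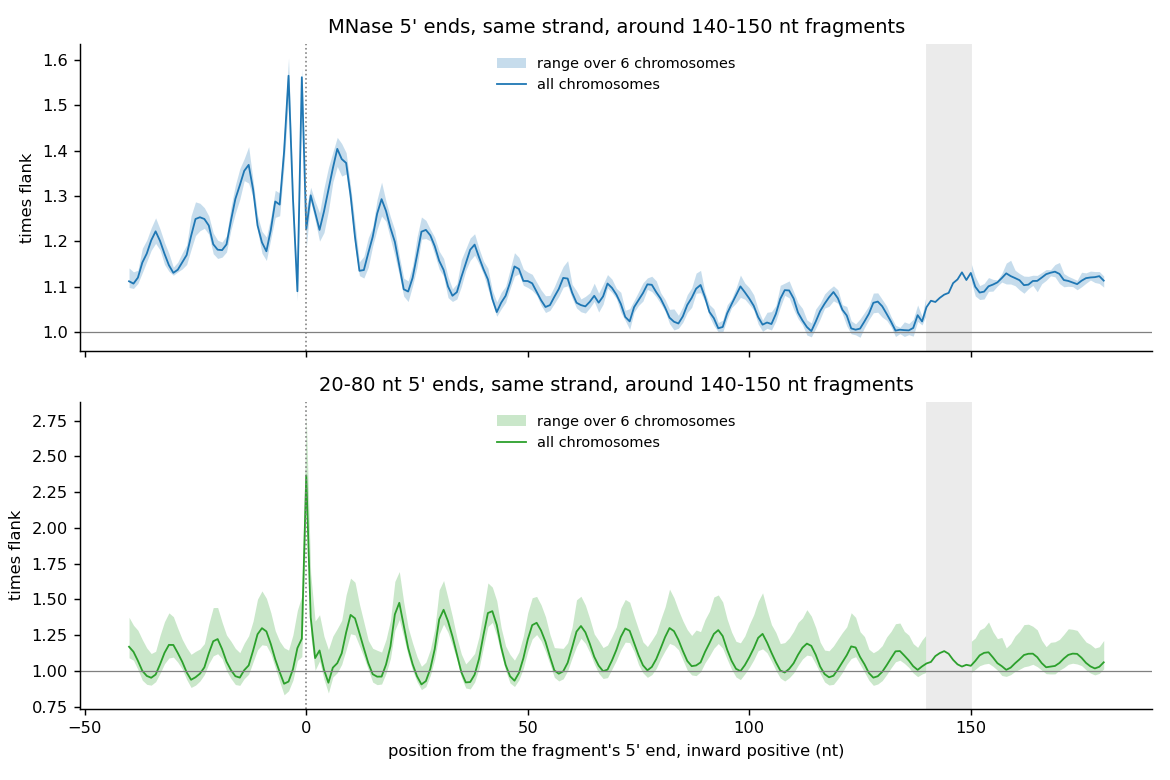
5′ ends of the MNase library (top) and of the 20 to 80 nt library (bottom) on the same strand as the fragment end, by position from the 5′ end of 140 to 150 nt fragments, in multiples of the mean 300 to 400 nt from the midpoint. Shading is the range over 6 chromosomes, whose upper edge in the bottom plot is chromosome V, and the grey band marks where the fragments end. MNase stands at 1.56 at both 1 and 4 nt outside, and the 20 to 80 nt ends at 2.37 on the end itself.

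From 10 to 130 nt inside core-length fragments the 10-nt share of the 20 to 80 nt ends was 15.1% with a best period of 10.25 nt, and the comparison periods gave 1.83%. It ran from 13.8% on X to 16.2% on III. On the opposite strand it was 16.9%. By length class the share was 13.7% for 130 to 139 nt (12.4 to 14.8%), 13.3% for 151 to 160 nt (12.1 to 14.1%) and 10.8% for 170 to 205 nt (9.33 to 12.3%). Only the last of these ranges lay wholly below that of the core-length fragments. Other endo-cleaved libraries gave 15.0% (50 to 130 nt paired-end), 12.4% (80 to 230 nt), 15.96% (40 to 90 nt single-end), 11.2% (90 to 140 nt) and 9.35% (140 to 240 nt). All 6 of these libraries, the 20 to 80 nt library included, had ends on the exact base of a core-length end more often than in the flank, from 2.23 times in the 40 to 90 nt library to 2.98 times in the 90 to 140 nt library. MNase ends there were lower, at 1.23 (1.19 to 1.27 over the chromosomes).

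The interior of core-length fragments was cut at a level close to the flank. Averaged from 10 to 130 nt, the 20 to 80 nt ends stood at 1.13 times the flank. On 5 chromosomes the value was 1.06 to 1.09, and on V it was 1.32. Without the 11 windows over 5 times the median it was 1.08 overall and 1.07 on V, so 2 windows of chromosome V set its excess. The height at the fragment end fell from 2.79 to 2.22 on V when they were left out. With all windows kept, other lengths had similar levels, at 1.14 for 130 to 139 nt, 1.13 for 151 to 160 nt and 1.15 for 170 to 205 nt. Values without the high windows were not computed for these lengths. The ends of a listed fragment must map uniquely, and the flank need not, which holds for every length class alike. Of 5930844 distinct fragments in the 20 to 80 nt library, 770466 (12.99%) shared an end with a core-length fragment, and 91.1% lay wholly inside at least 1. The share lying inside fell with length, from 95.5% of fragments of 26 nt to 85.4% of those of 80 nt. Core-length fragments covered 92.4% of the span counted by base, which is not the same measure as containment of whole fragments. The containment that random placement would give was not computed.

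The pooled values conceal a dependence on length of 1 nt at a time. The 10-nt share of the 20 to 80 nt ends inside the fragment was 31.4% for fragments of 140 nt and 31.1% at 141 nt. It fell through 29.3% at 142 nt, 20.8% at 144 nt and 8.50% at 146 nt to 7.24% at 147 nt, and rose again to 22.4% at 149 nt and 26.05% at 150 nt. The range over the chromosomes was 28.5 to 34.9% at 140 nt and 4.68 to 8.73% at 147 nt, with no overlap. Outside the band the same course went on, with 6.55% at 136 nt, 25.9% at 151 nt and 15.7% at 155 nt. Lengths under 136 nt or over 155 nt were not fitted one by one.

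Profiles of single lengths show what changes. In fragments of 141 nt the 20 to 80 nt ends had crests of 1.67, 1.68, 1.68 and 1.66 at 21, 31, 41 and 51 nt, and minima of 0.804, 0.790 and 0.783 at 26, 36 and 46 nt. Fragments of 150 nt had crests of 1.51, 1.49, 1.52 and 1.49 at the same 4 positions. In fragments of 147 nt the crests declined from 1.36 at 10 nt to 1.18 at 48 nt, and rose to 1.34 at 78 nt. Their minima also became shallower, from 0.940 at 5 nt to 1.09 at 53 nt. The mean level from 10 to 130 nt hardly differed, at 1.13 for 141, 147 and 150 nt. For a single length the opposite-strand profile is the mirror image of this one, so it adds nothing.

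The phase of the crests was fitted apart for the near part (10 to 65 nt) and the far part (75 to 130 nt) of the fragment, at the best period of 10.25 nt. Crests of both parts fell on the same phase at 141 nt (0.0291 nt apart) and at 151 nt (0.00075 nt). At 144 nt those of the far part lay 0.472 nt later. At 146 nt the lag was 2.53 nt, and at 147 nt they lay 2.91 nt earlier. A fit over the whole interior therefore joined parts that were in phase near 141 and 151 nt and out of phase near 147 nt. Amplitudes within the parts also fell, from 35.1% (near) and 26.8% (far) at 141 nt to 6.02% and 8.76% at 147 nt.

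**Figure D4:**
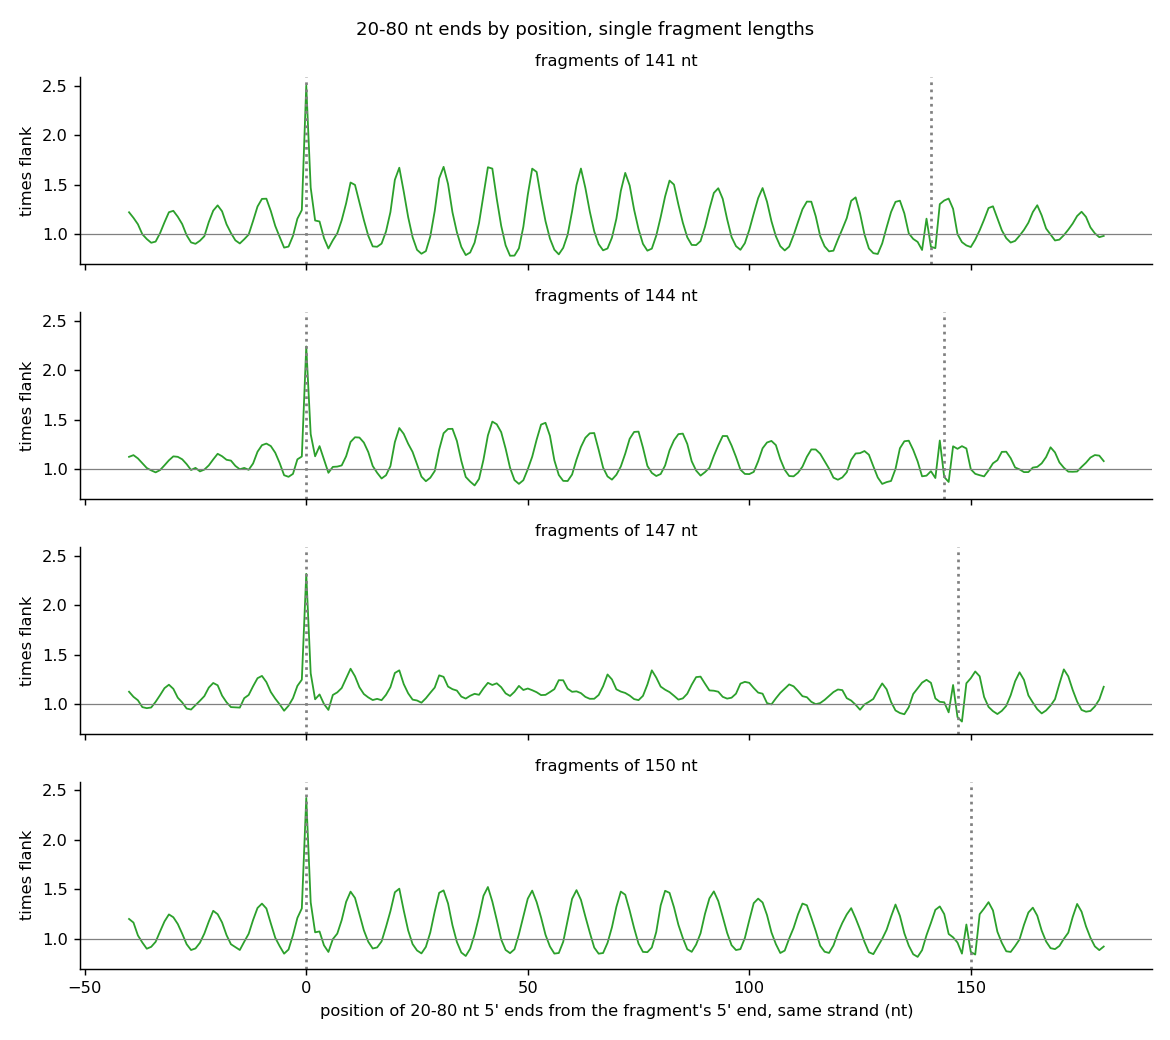
5′ ends of the 20 to 80 nt library by position from the 5′ end of fragments of 141, 144, 147 and 150 nt, same strand, in multiples of the flank at 300 to 400 nt from the midpoint. Dotted lines mark both ends of the fragment. Crests of about 1.67 between 21 and 51 nt at a length of 141 nt shrink to 1.18 at 48 nt for a length of 147 nt, and stand between 1.49 and 1.52 at a length of 150 nt.

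MNase ends followed length with a similar step. At 1 nt outside the end they rose from 1.44 at 140 nt to 1.69 at 144 nt (1.66 to 1.72 over the chromosomes), fell to 1.45 at 149 nt (1.42 to 1.47) and reached 1.71 at 154 nt. At 4 nt outside they were 1.62 at 142 nt, 1.47 at 147 nt and 1.65 at 152 nt. Within the band the MNase signal at 1 nt outside was highest at the middle length (1.70), a few nt longer than the length of 140 nt at which the 20 to 80 nt ends were most periodic. Ends of the 20 to 80 nt library on the exact fragment end followed the reverse course to MNase at 1 nt, with 2.56 at 140 nt, 2.24 at 144 nt and 2.42 at 149 nt.

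Recurrence of the same fragment in another library also depended on length. Of the core-length fragments, 27361 (0.907%, 95% Wilson interval 0.896 to 0.917%) were listed with both ends identical in the 80 to 230 nt library. They made up 3.20% of its 855347 distinct fragments of 140 to 150 nt. The share was 0.959% at 140 nt, 1.204% at 144 nt (1.16 to 1.25%), 0.549% at 149 nt (0.521 to 0.578%) and 0.618% at 150 nt. Beyond the band it was 0.953% at 153 nt. The second list also holds fewer fragments of the lengths with low shares, 84718 at 144 nt and 64107 at 149 nt. As a share of those it was 4.05% at 144 nt and 2.25% at 149 nt, so the difference remained. Fragments with more copies were found again more often, at 0.831% for 1 copy, 1.23% for 2 copies and 2.87% for 3 or more (2.72 to 3.03%). The mean number of copies had its own maximum of 1.15 at 144 nt, against 1.14 at 149 nt.

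Midpoint distances behaved likewise when both fragments had the same length. The 10-nt share from 21 to 120 nt was 29.9% among fragments of 140 nt, 12.9% at 144 nt, 5.11% at 147 nt and 22.99% at 150 nt. The 4.01% of the whole band was taken over pairs of equal and of unequal lengths.

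**Figure D5:**
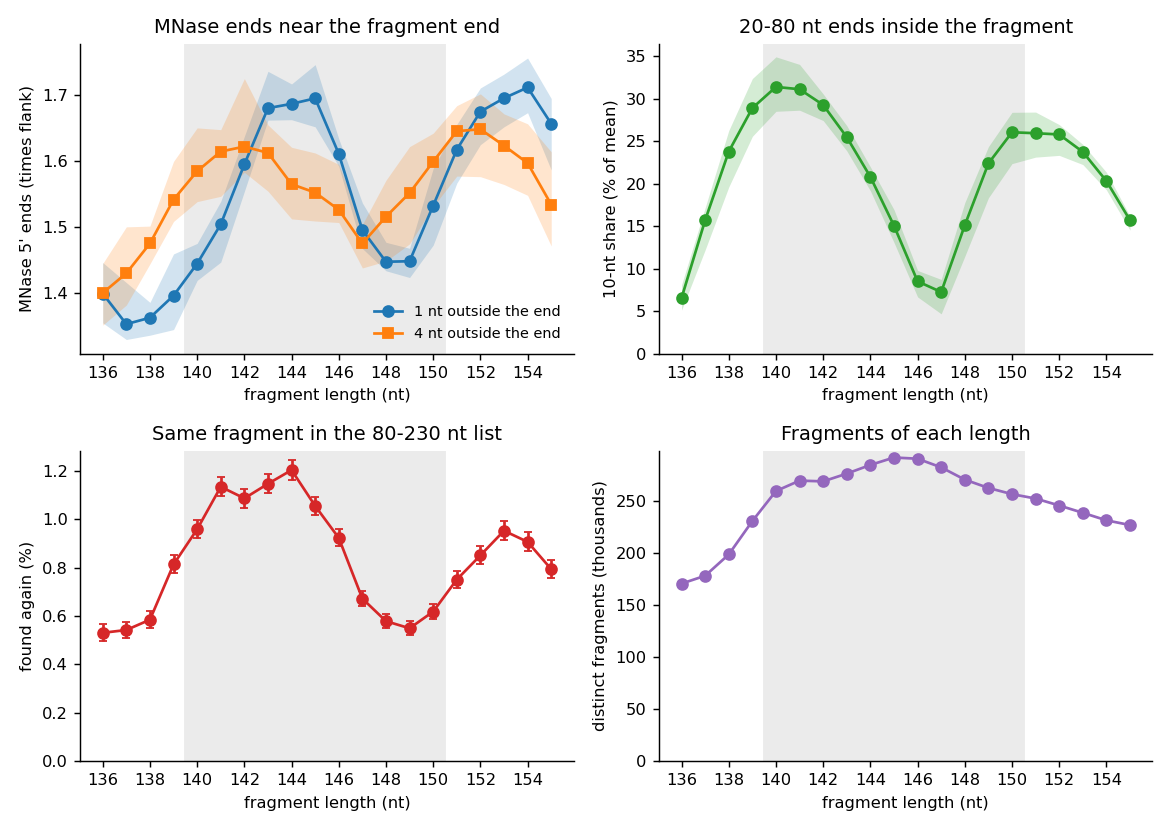
Values for each fragment length from 136 to 155 nt, with 140 to 150 nt shaded in grey. Top left, MNase 5′ ends 1 and 4 nt outside the fragment end, and top right, the 10-nt share of 20 to 80 nt ends inside the fragment, both with the range over 6 chromosomes. Bottom left, the percentage of fragments found again in the 80 to 230 nt library with 95% Wilson intervals, and bottom right, distinct fragments of each length. The 10-nt share is 31.4% at 140 nt and 7.24% at 147 nt, while MNase at 1 nt outside stands at 1.69 at 144 nt.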

How the data were processed

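The authors blunted, linker-ligated, size-selected and amplified the DNA and mapped the reads. The submitters' processing notes name Bowtie 0.12.7. The genome build is not given in the sources used here. The deposited lists hold a whole-number count of tags per position and strand, or of fragments per pair of ends, and are not normalized. The 130 to 430 nt list held 15331431 fragments, the 20 to 80 nt list 6097218 and the MNase list 7892011 tags.

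Each tag or fragment end was placed at its 5′ base. Fragments were assigned to windows of 1000 nt by midpoint. Profiles counted every MNase tag or short fragment around each distinct core-length fragment. The 10-nt share used periods from 9.8 to 10.7 nt over a quadratic baseline, with 7.0 to 7.6 and 13.0 to 14.5 nt as the comparison. Midpoint distances that were not whole were split between their neighbours. Named windows were the 1 with most core-length fragments on each chromosome, with and without windows over 5 times the median.

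The fragments, comparisons and rules were chosen with earlier results of these data known. With 1 library per condition there was no test and no p-value. Alternatives counted copies or positions differently, left out high windows, used lengths of 143 to 148 nt, or changed windows and baselines. The single-length comparisons, the end gaps and the smoothing over 31 nt were chosen after seeing the data. Sequence, base composition and gene context were not analysed here, because no genome of the lists' build was used. Functions were tested on simulated data. Software was NumPy 2.4.6, Numba 0.67.0, pandas 2.3.3, SciPy 1.17.1 and Matplotlib 3.10.9 under Python 3.11.15.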

Additional observations from a re-analysis of the deposited data

How the results depend on the processing

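Of 33 recomputed values, 26 stayed within the range over the chromosomes (1 nt wider for positions, an allowance chosen after seeing the data), the Wilson interval or, for the count of fragments, 1.5 times. Not all of them could move. Pairs sharing an end were absent at midpoint distances of 6 nt, while the fit began at 21 nt and the repeat search at 140 nt. Leaving those pairs out therefore could not change either value. Leaving out 11 of 99101 windows could hardly shift a ratio of medians. With the 6 middle lengths of the band alone the 10-nt share of midpoint distances was 6.53% and that of the 20 to 80 nt ends inside the fragment 9.23%. Under the same setting the midpoint repeat fell 1 nt below the lowest chromosome (149 nt). Distances of 1 to 100 nt gave a share of midpoint distances of 6.05%. Relative to all fragments of the library, the ratio of X to autosomes was 1.00. Each MNase position counted once gave a height of 1.51 at the fragment ends. Under that setting the MNase maximum moved from 4 nt to 1 nt outside the end. With the 6 middle lengths of the band alone the maximum also lay at 1 nt. These positions counted as unchanged because the accepted range ran from 0 to 5 nt. Without 20 to 80 nt fragments that share an end with a core-length fragment, the interior stood at 1.05 times the flank. Allowing both ends to differ by 1 nt, 2.67% of the fragments were found again. The cause of these moves was not tested. Base composition was not run. The median window of 1 kb held 30 core-length fragments and 75 MNase tags, and rho between them was 0.62 in windows of 1 kb and of 10 kb alike.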
